A study of Mus musculus with 11 samples.

Results

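Galanin is a short neuropeptide that is cut from a precursor encoded by Gal and signals through a small family of G protein-coupled receptors. In sympathetic neurons it can be stored and released alongside noradrenaline and neuropeptide Y, the product of Npy. Gal is also known as a gene that sympathetic and sensory neurons switch on when their axons are cut, partly through leukaemia inhibitory factor and other cytokines that use the receptor chain gp130. The data below describe 1 gene, Gal, out of 19444 genes in a table of 878 single cells, chosen by its symbol. Its level was followed over the authors' 4 numbered clusters, over cells within a cluster, against Npy in the same cells and over the 3 pools of mice.

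The cells came from the stellate ganglion, a sympathetic ganglion of the lower neck and upper chest whose neurons supply the heart, forelimb and brown fat, of 6 male C57BL/6J mice aged 6 to 8 weeks. All mice had received a retrograde tracer in the forelimb and another in the interscapular brown fat 3 days before collection, so no pool was untraced. Each of 3 sets held the ganglia of 2 mice, sorted into plates: 3 for Set 3 and 4 each for Sets 1 and 2. Tracer labels of single cells were not used here, so no traced population is compared. The table held 30518080 counts, with 2050165 to 3373157 per plate, and medians of 32923.5 counts and 6397.5 genes per cell. The 96 well barcodes were each used in 2 or more plates, up to 11, as is usual for a plate design, and cells were told apart by plate and barcode. Cells of cluster 3 fell into separate depth ranges, with no cell between 18608 and 52105 counts. They are therefore given as 47 high-count cells and 54 low-count cells. Noradrenergic markers (Th, Dbh, Slc6a2 and Slc18a2, all 4 in the table) summed to 92.1 counts per 10000 in cluster 1, 91.4 in high-count cluster 3, 117 in cluster 2, 33.6 in cluster 4 and 39.6 in low-count cluster 3. Cluster 4 was the group rich in cholinergic markers (Chat, Slc18a3, Slc5a7 and Vip), at 61.9 counts per 10000, against 3.01 or less in the others.

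Gal lies on the minus strand of chromosome 19, at chr19:3409915-3414544 in GRCm38, and its identifier in GENCODE M21 is ENSMUSG00000024907.7. The annotation holds 2 transcripts with 6 exons each, which start at 3414544 and 3414447, and 0 other genes overlap the locus. Npy lies on the plus strand at chr6:49822710-49829507. The 250 bases before each gene's start are printed 5′ to 3′ because the genes moved together between clusters and apart in the high-count cells of cluster 3. They are credited to RefSeq (GRCm38.p6), and cover chr19:3414545-3414794 on the minus strand for Gal and chr6:49822460-49822709 on the plus strand for Npy. Capitals mark the GC box, the letters GGGCGG.
Gal: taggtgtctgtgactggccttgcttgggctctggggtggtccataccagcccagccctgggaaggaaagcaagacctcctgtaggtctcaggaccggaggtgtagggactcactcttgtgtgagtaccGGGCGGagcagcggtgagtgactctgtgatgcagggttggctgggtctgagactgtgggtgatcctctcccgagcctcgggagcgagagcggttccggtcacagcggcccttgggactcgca
Npy: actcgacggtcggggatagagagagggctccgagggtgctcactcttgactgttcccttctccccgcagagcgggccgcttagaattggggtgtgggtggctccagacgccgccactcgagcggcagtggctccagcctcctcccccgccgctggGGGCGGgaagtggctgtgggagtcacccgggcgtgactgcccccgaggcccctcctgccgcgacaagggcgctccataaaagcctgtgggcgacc
Each window held 1 GC box, searched on both strands, and 32.7% of 32851 promoter windows held at least 1. Neither window held the E box CANNTG, which was in 66.2% of windows, the AP-1 site TGACTCA (4.46%), the cAMP response element TGACGTCA (1.55%) or TATAAA (12.4%). TGACG, a shortened cAMP response element that also lies inside the full one, was in 17.8% of windows and in neither of these. The Gal window lies before the start at 3414544, so the bases just before the other start, at 3414447, were not searched. These are matches of letters and say nothing of which factors bind.

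Gal was one of the most abundant transcripts of the ganglion and was concentrated in cluster 1. It had 78778 counts in all, the 25th highest total of all genes, and was at 0 in 2 cells. Cluster 1 held 44.2% of the cells and 74.1% of the Gal counts. Cluster 4, with 6.15% of the cells, held 0.468% of them. The clusters are assumed to have been made from the expression of these same cells, so the levels by cluster are a description and carry no test. All levels are counts per 10000 counts of a cell, averaged over cells within a set and then over sets.

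In cluster 1, Gal averaged 60.9 counts per 10000 in Set 1, 44.2 in Set 2 and 56.2 in Set 3, or 53.8 ± 8.57 (SD, n = 3 sets). In the high-count cells of cluster 3 it averaged 11.6, 26.7 and 33.7 in Sets 1, 2 and 3, or 24.0 ± 11.3. In cluster 2 it averaged 11.7, 6.68 and 11.9, or 10.1 ± 2.96. Cluster 1 was thus highest in every set, and its 3 set means did not overlap those of any other group. In cluster 4 Gal averaged 2.46, 2.59 and 1.19 in Sets 1, 2 and 3, or 2.08 ± 0.772. The low-count cells of cluster 3 averaged 17.4, 24.0 and 19.9, or 20.4 ± 3.32. High-count cluster 3, low-count cluster 3 and cluster 2 were neighbours in this order, and the set means of the high-count cells overlapped those of the other two. Cluster 4 was lowest in every set and overlapped no other group.

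**Figure D1:**
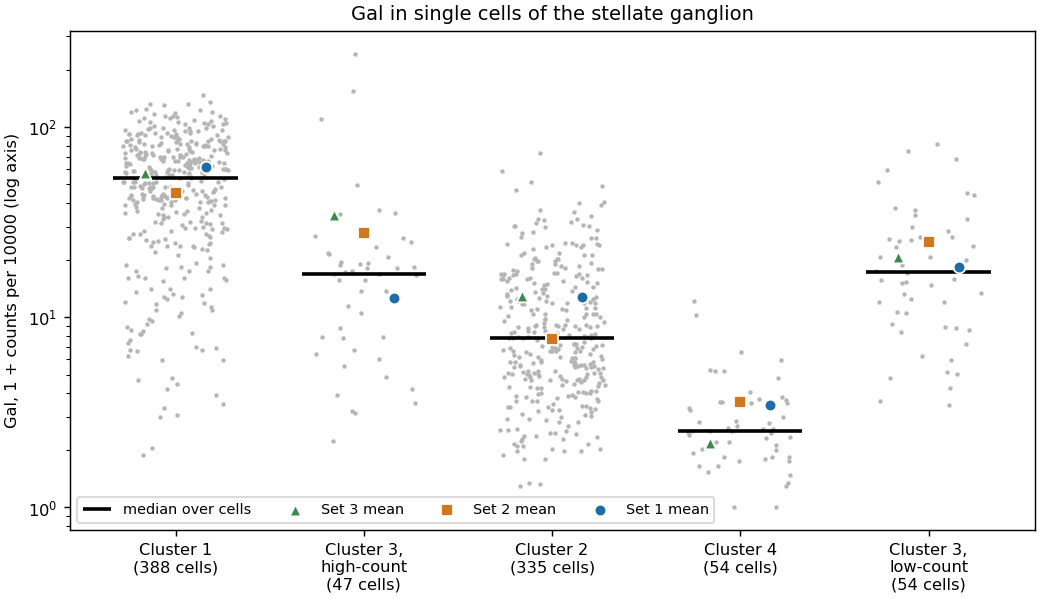
Gal in each of 878 cells, as 1 + counts per 10000 on a log axis, by cluster with cluster 3 divided by total counts. Grey points are cells, the black line is the median over cells and coloured symbols are the means of the 3 sets; cluster 1 is highest, at a mean of 53.8, and cluster 4 lowest, at 2.08.

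Set by set, the log2 difference of mean log2(1 + counts per 10000) between cluster 1 and cluster 2 was 2.25, 2.76 and 2.23, with a mean of 2.41 ± 0.30. The ratio of the mean levels was 5.32. This was the second highest difference among 10424 genes, after Npy at 3.78 ± 0.81, and the median gene differed by -0.01. Against cluster 4, cluster 1 was higher by 3.98 ± 0.43, again next to Npy, at 5.44 ± 0.26, among 10579 genes. Cluster 2 was above cluster 4 by 1.62, 0.85 and 2.21 in Sets 1, 2 and 3. The high-count cells of cluster 3 were above cluster 2 by 1.61 and 0.93 in Sets 2 and 3, with -0.01 in Set 1. In that same comparison Npy was lower in the high-count cells by 2.10 ± 0.65 on the log2 scale, the lowest value of 10354 genes. Gal and Npy therefore stood side by side at the top of the cluster 1 differences and apart in cluster 3.

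A Gal count was present in nearly every cell before depth was made equal, at 388 of 388 cells of cluster 1 and 52 of 54 cells of cluster 4. With every cell thinned to 1500 counts, no cell had to be left out, and 95.4% of cluster 1 cells had a Gal count (95% Clopper-Pearson interval 92.8 to 97.2, counting error only). The share was 80.9% in high-count cluster 3 (66.7 to 90.9), 63.3% in cluster 2 (57.9 to 68.5), 20.4% in cluster 4 (10.6 to 33.5) and 88.9% in low-count cluster 3 (77.4 to 95.8). Median totals before thinning were 28396, 68061, 40121, 35488.5 and 2683.5 counts in the same order. No cell group here is known to lack Gal, and cDNA of a plate was pooled before amplification. The low level of cluster 4, a median of 5 counts per cell, is therefore not read as expression or as its absence.

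Low-count cluster 3 cells had higher mean levels of endothelial, fibroblast and mural markers than the other groups. Endothelial markers summed to 14.7 counts per 10000 in them, ranging over sets from 6.38 to 19.5, against 0.0706 or less in each other group, with all 6 markers in the table. Fibroblast markers (3 of 5 in the table) summed to 25.1, ranging over sets from 0 to 43.0, against 0.103 or less elsewhere, and mural markers (4 of 4) to 16.9, ranging from 2.47 to 26.6, against 0.971 or less. Satellite glia and Schwann cell markers (5 of 5) summed to 5.58, ranging from 0.427 to 15.8, and overlapped cluster 4, at 4.32. Macrophage markers (3 of 4), at 0.263, were below cluster 2 (0.326) and cluster 4 (0.510). Markers of neurons in general (4 of 5 in the table) summed to 33.7, ranging from 25.9 to 47.0, against 92.1 in cluster 1. The median cell of this group had 5 Gal counts. Over the group there were 482 Gal counts, and 150 of the 167 counts of Set 3 came from its deepest cell, with 18608 counts in all. Gal counts per Th count were 1.28 in these cells, 1.10 in cluster 1 and 0.498 in all cells outside the group. Without Set 3, where 1 cell weighs most, the ratios in the low-count cells were 1.08 in Set 1 and 0.899 in Set 2, against 1.30 and 1.09 in cluster 1. Gal counts per Npy count were 0.482 and 0.561 in the low-count cells of Sets 1 and 2, against 0.30 and 0.24 in cluster 1. How much of this Gal is the cells' own was not tested.

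Within cluster 1, Gal was one of the most uneven of the abundant transcripts. Its level ran from 0.892 to 147 counts per 10000 with a median of 52.8, and 354 of 388 cells had at least 10. The SD over cells of log2(1 + counts per 10000) was 1.18, the fourth highest of 128 genes with a mean of at least 10, whose median SD was 0.331. Plates accounted for 6.66% of the variance of Gal over cluster 1 cells, so most of this spread lay between cells of the same plate. Npy was steadier in the same cells, with an SD of 0.708. In cluster 2 the SD of Gal was 1.14 (the third highest of 135 genes), and 120 of 335 cells had at least 10 counts per 10000.

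The relation of Gal to Npy depended on where it was read. Over the 824 cells outside low-count cluster 3, Spearman's rho between the genes was 0.626, 0.655 and 0.561 in Sets 1, 2 and 3, and these cells share libraries and span the clusters. Inside cluster 1 it was -0.176 over 156 cells of Set 1, -0.080 over 140 cells of Set 2 and -0.155 over 92 cells of Set 3. It was below 0 in 10 of 11 plates. These weak values are given as a description, and no p is attached to any correlation over cells. Npy stood 8625th of 8983 genes by its mean rho with Gal in cluster 1, -0.137, where 5th to 95th percentiles over all genes ran from -0.127 to 0.109. Among cluster 1 cells ordered into equal tertiles by Npy in each set, Gal averaged 60.6 ± 11.8 in the lowest tertile, 51.4 ± 8.81 in the middle and 49.3 ± 6.81 in the highest (SD over 3 sets), ranges that overlap. Within each set the lowest tertile had the most Gal, at 68.8, 47.1 and 65.8 in Sets 1, 2 and 3. The middle tertile had 56.8, 41.3 and 56.3, and the highest 57.0, 44.3 and 46.5.

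In cluster 2 the rho of Gal with Npy was 0.180, 0.439 and -0.031 in Sets 1, 2 and 3, and above 0 in 9 of 11 plates. Cells of cluster 2 with more counts had less Gal, at a rho with total counts of -0.221, -0.437 and -0.376, and less Npy, at -0.261, -0.561 and -0.304. The mean rho of Gal with Npy was 0.196, and 0.075 when the total was held constant, an alternative added after the data were seen. In cluster 1 the same step moved the mean only to -0.161. The 13 to 19 high-count cluster 3 cells of a set gave -0.291, -0.368 and 0.593, with no common sign. Cluster 4 gave 0.259, 0.690 and 0.587, at median counts of 5 per cell for Gal. Low-count cluster 3 gave 0.83, 0.78 and 0.62, with a median total of 2683.5 counts and the markers described above.

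Cross-classified at 10 counts per 10000 of each gene, 353 of 388 cluster 1 cells were above the level for both, 34 for Npy alone and 1 for Gal alone. That 1 cell, in Set 3, had 59.1 counts per 10000 of Gal and 0.426 of Npy. High-count cluster 3 showed another combination, with 31 of 47 cells above the level for Gal alone, 1 for Npy alone, 15 for neither and 0 for both. Cluster 2 held every combination, with 78 of 335 cells above it for both, 42 for Gal alone, 95 for Npy alone and 120 for neither. In cluster 4, 53 of 54 cells were below it for both. The summed counts gave 0.280 Gal counts per Npy count in cluster 1, 11.5 in high-count cluster 3, 0.408 in cluster 2 and 0.589 in cluster 4. In high-count cluster 3 the ratio varied between sets, at 3 in Set 1, 16.2 in Set 2 and 23.2 in Set 3. Of its 8007 Gal counts, 1642, 851 and 806 came from 3 cells of Sets 2 and 3. At a lower level of 5 counts per 10000, 3 of 47 cells of high-count cluster 3 were above it for both genes and 36 for Gal alone.

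**Figure D2:**
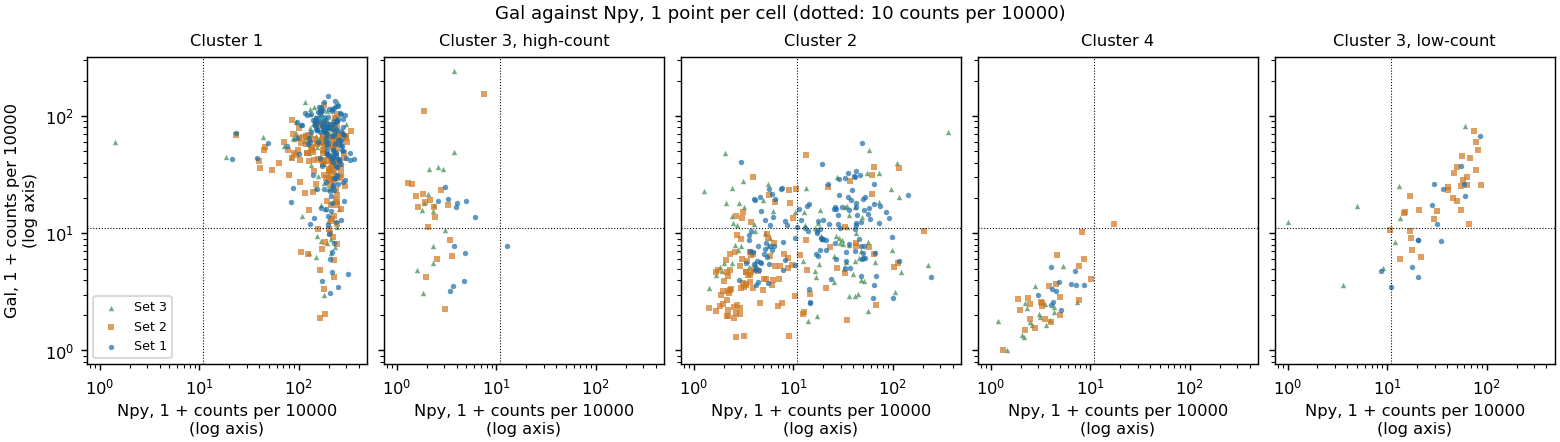
Gal against Npy in single cells, both as 1 + counts per 10000 on log axes, with 1 panel per group and symbols by set; dotted lines mark 10 counts per 10000. In cluster 1, 353 of 388 cells lie above both lines, and in high-count cluster 3, 31 of 47 lie above the line for Gal and below that for Npy.

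The high-count cells of cluster 3 held the 2 highest Gal levels of the whole table. The top 3 cells of this group had 241 counts per 10000 (Set 3), 155 (Set 2) and 109 (Set 2), and the next had 48.8 (Set 3). The median of the 47 cells was 15.8. These 3 cells weigh on the group mean: without them, an alternative added after the data were seen, it was 14.9 ± 3.67 (SD, n = 3 sets) in place of 24.0 ± 11.3. The level of Set 1, where none of them lay, was 11.6.

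Of 7 axon injury genes, 6 were above the median of the other 44 high-count cells in each of these 3 cells, and 1, Sprr1a, was not, at 20.4, 0 and 0.129 counts per 10000. The share of all genes above that median in the 3 cells was not counted, so the tally has no background. For some of the genes the median of the 44 was near 0, as for Sox11 (0.147) and Ecel1 (0.144). The 6 were the transcription factor genes Atf3, Jun and Sox11, and Gap43, Ecel1 and Gadd45a, for each of which 1 to 3 of the 44 others reached the lowest of the 3 cells. Atf3, which is switched on in neurons after axon damage, was at 12.2, 12.3 and 1.67 counts per 10000 in the 3 cells and 7.95 in the fourth. Its median in the other 44 high-count cells was 0, and 2 of the 44 reached the lowest of the 3. Calca, which encodes calcitonin gene-related peptide, was at 10.3, 10.4 and 8.10 in the 3 cells, above all 44 others, whose highest was 7.60. Agrp, a neuropeptide gene with a median of 2.93 in the 44, was at 0, 0.192 and 0.514 in the 3. Th, the rate-limiting enzyme of noradrenaline synthesis, was at 21.0, 13.4 and 12.3, against a median of 43.2 and a lowest value of 14.8 in the 44. The cells were set apart by their Gal level and the other genes looked at afterwards, so this is a description of 3 cells and no test was made. Among the other genes looked at, Dbh was at 5.29, 5.37 and 10.0, against a median of 23.3 in the 44, and Vip at 0.294, 0.576 and 0.514, against 0.0945.

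Of the 47 high-count cells, 5 had at least 1 count per 10000 of Atf3, and their Gal ran from 12.7 to 241 with a median of 109. The 42 cells below that level had 1.24 to 35.9 with a median of 15.8, so the groups overlap through 1 Atf3-positive cell of Set 1, with 12.7 of Gal. Few cells elsewhere reached that level of Atf3, other than in low-count cluster 3. The median total there was 2683.5 counts, against 68061 in the high-count cells. A low-count cell of that depth passes the level with 1 Atf3 count, so the level is a looser cut there than in deeper cells. In low-count cluster 3, 17 cells with Atf3 had a median Gal of 9.52, against 17.8 in 37 without, and cluster 4 had 2 such cells, with 2.71 and 5.59 of Gal beside a median of 1.52 in the 52 without. Cluster 1 had 1, with 43.1 of Gal beside a median of 53.0 in the others, and cluster 2 had 1, with 22.5 beside 6.77. Both cells were shallow for their cluster, so the level is a looser cut for them too. Their totals were 16492 counts in cluster 1, against a median of 28458 in the others, and 9772 in cluster 2, against 40131.

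**Figure D3:**
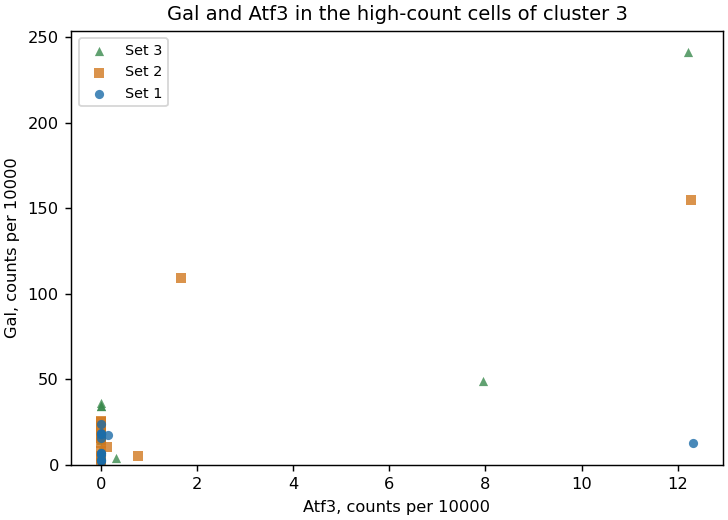
Gal against Atf3 in the 47 high-count cells of cluster 3, both in counts per 10000 on linear axes, with symbols by set. Of the 5 cells with at least 1 of Atf3, 4 have 48.8 to 241 of Gal and 1, in Set 1, has 12.7; the 42 others have at most 35.9.

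Genes whose pattern was most like that of Gal were sought first between clusters, by Pearson's r over the 9 means of the 3 sets in clusters 1, 2 and 4. Of 3383 genes, Npy had the highest value, 0.993; with counts thinned to 15000 per cell it had 0.989, below S100a1 (0.994), Ncald (0.993) and S100a6 (0.991). The next 7 were S100a6 (0.986), S100a1 (0.985), Adm (0.985), Ncald (0.983), S100a13 (0.978), Cpne9 (0.976) and Qdpr (0.972). S100a6, S100a1 and S100a13 encode calcium-binding S100 proteins, Ncald encodes the calcium sensor neurocalcin delta, and Adm encodes the peptide adrenomedullin. S100a6 averaged 16.6 ± 2.56 counts per 10000 in cluster 1, 5.88 ± 2.16 in cluster 2 and 0.416 ± 0.134 in cluster 4. Adm averaged 1.47 ± 0.246, 0.469 ± 0.105 and 0.0136 ± 0.0150 in the same clusters. Qdpr, which encodes the enzyme that regenerates the cofactor of tyrosine hydroxylase, had the mildest gradient, at 5.57 ± 0.186, 4.31 ± 0.487 and 3.30 ± 0.105. In high-count cluster 3, which the choice did not use, these 7 genes and Npy were all below both their cluster 1 and their cluster 2 levels, with S100a6 at 1.65 ± 0.243. Qdpr was there at 3.72 ± 0.458, a range that overlaps that of cluster 2. How many of all genes lay below both levels was not counted, so this is a description of the chosen genes. Gal there, at 24.0 ± 11.3, was below its cluster 1 level and above its cluster 2 level of 10.1 ± 2.96. The 9 points share libraries and 3 levels of cluster, so high values of r are common.

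Within cluster 1, where the rho of Npy with Gal was weakly negative, other genes lay far from 0. Chga, which encodes chromogranin A of dense-core vesicles, had a rho with Gal of 0.688, 0.633 and 0.681 in Sets 1, 2 and 3. Rgs4, a regulator of G protein signalling, had 0.675, 0.553 and 0.370. Ecel1, which encodes a neuronal endopeptidase-like protein and is on the axon injury list, had 0.506, 0.461 and 0.604. Anxa5 (mean 0.507), Thy1 (0.505) and Gda (0.50), which encode annexin A5, a neuronal surface glycoprotein and guanine deaminase, completed the top 6 of 8983 genes. Each of the 6 was positive in all 3 sets.

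The 4 genes at the other end were as far from 0. Myl1, known in skeletal muscle as a myosin light chain, had -0.653, -0.649 and -0.691. Htr3a and Htr3b, the subunits of the ionotropic serotonin receptor, averaged -0.605 and -0.589. Spock3, which encodes an extracellular proteoglycan, averaged -0.582. Each was negative in all 3 sets. These genes were selected as the extremes of the same cells, so the values are a description.

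When the cluster 1 cells of each set were ordered by Gal, the tertile with the most Gal had 86.8 ± 13.9 counts per 10000 of Gal and that with the least 20.4 ± 3.02 (SD, n = 3 sets). Chga was at 6.82 ± 0.812 in the tertile with the most Gal and 1.98 ± 0.137 in that with the least. Ecel1 was at 1.80 ± 0.507 and 0.578 ± 0.162, and Gda at 1.98 ± 0.109 and 0.465 ± 0.205. Myl1 was at 0.527 ± 0.359 in the tertile with the most Gal and 5.09 ± 0.380 in that with the least, Htr3a at 1.15 ± 0.525 and 4.64 ± 1.01, and Htr3b at 0.323 ± 0.0782 and 1.93 ± 0.328. Npy was close to level, at 183 ± 7.96 and 198 ± 11.7. The tertile with the most Gal thus had more Chga and less Myl1 and Htr3a on average, and Npy was high in both tertiles. Apart from Npy, these genes were chosen by their rho with Gal in the same cells, so their differences between tertiles follow from that choice. Whether Chga, Myl1 and Htr3a go together cell by cell was not tested. Over cluster 1, Gal itself had a rho with total counts of -0.227, and those of Chga, Myl1 and Htr3a with the total were -0.124, 0.064 and 0.121. In cluster 2 the mean rho with Gal was 0.354 for Chga, 0.231 for Ecel1, -0.255 for Myl1, -0.198 for Htr3a and -0.150 for Htr3b. Each had the sign it had in cluster 1 and was nearer to 0. The other named genes were weaker still, at 0.081 for Rgs4, 0.074 for Anxa5, 0.012 for Gda and -0.094 for Spock3. Thy1 had the other sign, at -0.073.

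**Figure D4:**
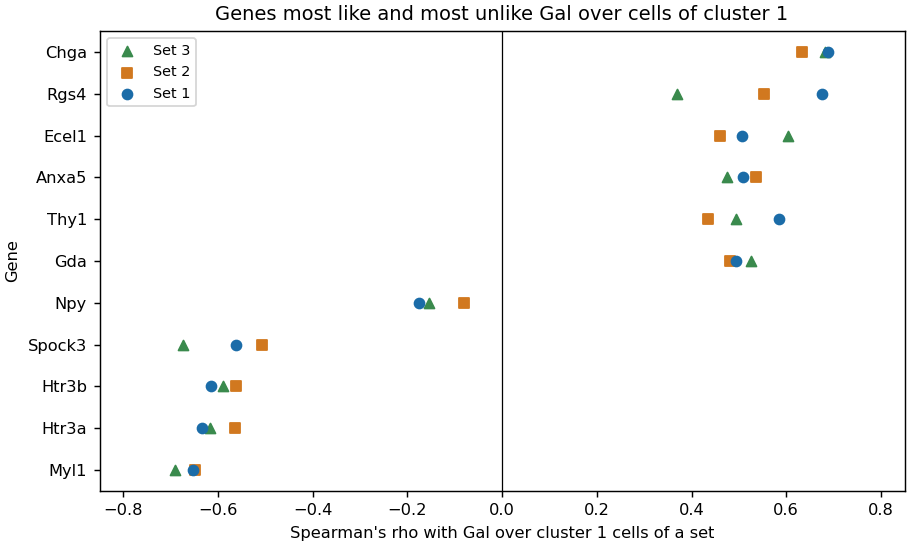
Spearman's rho with Gal over the cluster 1 cells of each set (156 cells in Set 1, 140 in Set 2, 92 in Set 3) for the 6 highest genes, the 4 lowest and Npy. Chga lies at 0.633 to 0.688 and Myl1 at -0.691 to -0.649, while Npy lies between -0.176 and -0.080.

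The other genes of galanin biology were read against all genes. In cluster 1, 14.5% of 8983 genes had a rho with Gal above 0 in all 3 sets and 19.7% below 0, with a median of -0.009. Of 9 noradrenergic genes 7 were above 0 in all 3 sets and 1 below, with a median of 0.163. Th had 0.321, 0.320 and 0.556, and Gch1, which makes the cofactor of tyrosine hydroxylase, had 0.358, 0.195 and 0.279. Slc18a2, the vesicular monoamine transporter, averaged 0.216 and Dbh, which converts dopamine to noradrenaline, 0.179. Maoa, which breaks noradrenaline down, was the exception at -0.250. In cluster 2, where 6.35% of genes were above 0 in all 3 sets and 30.5% below, 0 of these 9 genes were above 0 and 4 were below. The difference between the clusters was not tested.

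Of 5 granins in cluster 1, the vesicle proteins that include Chga, 2 were above 0 in all 3 sets and 2 below. Scg2 averaged 0.230, and Scg3 and Vgf -0.058 and -0.056. Of 6 genes for the processing of peptide precursors 1 was above and 3 below, among them Pcsk2 (-0.188), a protease that cuts prohormones, Pam (-0.139), which amidates peptides such as galanin, and Pcsk1n (-0.317), an inhibitor of the protease encoded by Pcsk1. Of 6 sympathetic transcription factors 3 were above and 1 below, with Isl1 at 0.309 and Gata3 at -0.128. Of 5 axon injury genes compared, 1, Ecel1, was above 0 in all 3 sets and 1, Jun, below, at -0.111, while Sox11, Gap43 and Gadd45a averaged 0.067, 0.094 and 0.043. Atf3, which had a count in 5.93% of cluster 1 cells, was too rarely detected for the comparison.

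Of the gp130 cytokine list, 5 of 10 genes were detected often enough, with 1 above 0 in all 3 sets and 1 below, and Lif was not among the genes of the table. Lifr, the receptor for leukaemia inhibitory factor, was at 0.283 ± 0.102 counts per 10000 in cluster 1, 1.18 ± 0.598 in high-count cluster 3, 0.698 ± 0.257 in cluster 2 and 0.968 ± 0.441 in cluster 4 (SD, n = 3 sets), and its mean rho with Gal in cluster 1 was 0.072. Stat3, the transcription factor downstream of gp130, had 0.163, 0.174 and -0.037. Among 3 neuropeptide genes detected often enough, 0 were above 0 in all 3 sets and 1, Npy, was below. The sole cholinergic gene compared, Ache, the enzyme that breaks down acetylcholine, averaged 0.052. The galanin receptor gene Galr2 was near the limit of detection, at 0.0491 ± 0.00901 counts per 10000 in cluster 1 with a count in 11.3% of cells, and 0.0385 ± 0.00720 in cluster 2 with a count in 13.7%. Spx, which encodes the related peptide spexin, was at 0.00368 in cluster 1. Galp, Galr1 and Galr3 were looked up and were not among the genes of the table.

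Whether Gal differed between the pools of mice was tested within a cluster, with limma on plate means. Gal was chosen with earlier results of these data known, so these p-values do not stand as independent of that choice. Plates of a set share the same 2 mice, so p-values measure the spread between plates and say nothing of the spread between animals. In cluster 1, plates of Set 2 had 40.1, 51.3, 39.9 and 46.9 counts per 10000 of Gal, against 55.1, 61.4, 59.2 and 68.1 in Set 1. Set 3 had 45.3, 55.3 and 68.8. In these mean levels all 4 plates of Set 2 were below all 4 of Set 1, while Set 3 overlapped both. On the mean log2 scale used for the tests, plate 6 of Set 2 (5.51) lay above plate 1 of Set 1 (5.37). The log2 difference of Set 2 from Set 1 was -0.44 (SE 0.194, limma adjusted p = 0.226, exact two-sided permutation p = 0.0571), which did not pass, and 8.88% of 10367 genes did. Set 3 differed from Set 1 by -0.14 (SE 0.210, limma adjusted p = 0.730, with 16.3% of genes called), and from Set 2 by 0.30 (SE 0.210, limma adjusted p = 0.369, with 20.3% called).

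In cluster 2, 2 of the 3 comparisons between pools passed the test for Gal. Its plates had 7.40, 5.99, 6.14 and 7.32 counts per 10000 in Set 2, against 10.3, 14.3, 9.58 and 11.6 in Set 1, and 14.4, 8.90 and 12.1 in Set 3. Set 2 lay below both other sets with no overlap. Gal was lower in Set 2 than in Set 1 by a log2 difference of -0.92 (SE 0.181, limma adjusted p = 0.0141). The exact two-sided permutation p was 0.0286, the smallest that 4 plates against 4 can give, and limma called 10.2% of 10360 genes in this comparison. Set 3 was higher than Set 2 by 0.81 (SE 0.196, limma adjusted p = 0.0150, exact permutation p = 0.0571, the smallest 3 against 4 can give), where 28.8% of genes were called. That call was lost without the first plate of Set 3 (0.72, limma adjusted p = 0.0548) and without the third one (0.72, limma adjusted p = 0.0628). Set 3 differed from Set 1 by -0.11 (SE 0.196, limma adjusted p = 0.768, with 16.4% called). Npy went the same way as Gal in cluster 2, at -1.54 in Set 2 against Set 1 (limma adjusted p = 0.00793) and 1.25 in Set 3 against Set 2 (limma adjusted p = 0.0122).

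Depth moved with these values. Median totals of cluster 2 cells ran from 40584 to 50876 counts over the plates of Set 2, from 33905 to 43865 over those of Set 1 and from 35255.5 to 36401 over those of Set 3. Cluster 2 cells with more counts had less Gal. Gal averaged 7.25 ± 2.86 counts per 10000 in the tertile of cluster 2 cells with the most counts, 7.79 ± 3.68 in the middle one and 15.3 ± 3.03 in that with the fewest. The part of depth in the difference between sets was not tested. On the plate-wise difference between cluster 1 and cluster 2, Set 2 exceeded Set 1 by 0.48 (limma adjusted p = 0.796). The exact permutation p of Gal alone was 0.0286, the smallest that 4 plates against 4 can give. Limma called 0 of 10421 genes there, with 648 at an unadjusted p under 0.05. Set 3 minus Set 1 gave -0.03 (limma adjusted p = 0.991, with 0 genes called and 879 at an unadjusted p under 0.05). Set 3 minus Set 2 gave -0.51 (limma adjusted p = 0.460, with 4 genes or 0.0384% called). By the adjusted limma test, the cluster 2 differences between sets were thus not shown to differ from those in cluster 1. For Set 2 minus Set 1, the permutation test of Gal alone fell on the other side of 0.05, so the question stays undecided there.

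**Figure D5:**
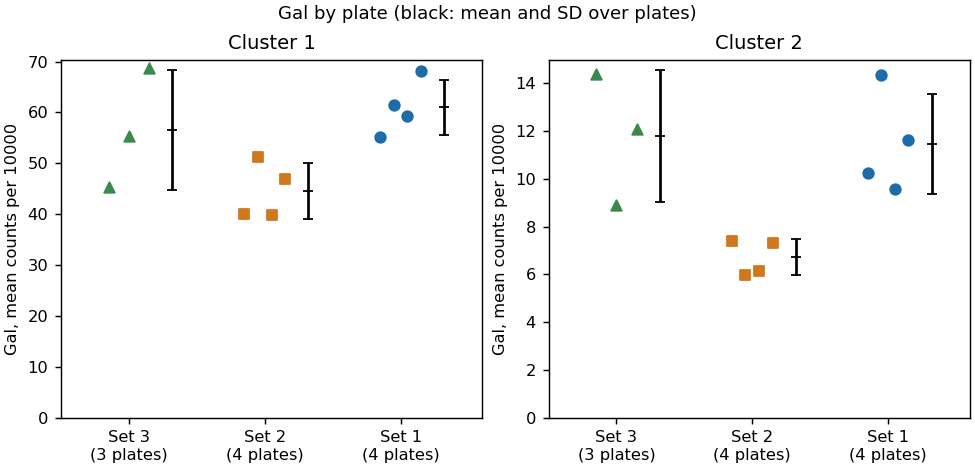
Mean Gal per plate in counts per 10000, in cluster 1 (left) and cluster 2 (right), for Sets 3, 2 and 1; symbols are plates and black bars the mean and SD over plates. In cluster 2 the Set 2 plates, at 5.99 to 7.40, lie below the Set 3 plates, at 8.90 to 14.4, and the Set 1 plates, at 9.58 to 14.3.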

How the data were processed

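The deposited table holds, per the submitters' processing notes and the values, the natural log of 1 plus counts per 10000 in each cell. Whole counts, within 0.001, were recovered for 100% of non-zero values. Per the submitters' processing notes, STAR 2.5.3a, featureCounts 1.5.3, SAMtools 1.4.1 and Seurat were used with GRCm38; per the labels' protocols, cDNA was pooled for library construction and 3′ ends were sequenced. Cluster numbers are the authors' labels; the sources used here do not say how cells were clustered. The sort record, with 1039 wells, was not used for comparisons.

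Gal, the gene lists and the tests were chosen with earlier results of these data known. A member of the lists is not reported here. Cluster 3 was divided at the widest gap in log total counts. Levels were averaged over cells within sets. Sets were compared over plates with at least 10 cells of the cluster, with limma 3.58.1 in R 4.3.3 (trend and robust options) on mean log2(1 + counts per 10000), for genes with a mean of at least 0.05, two-sided, with Benjamini-Hochberg adjustment over all genes and a threshold of 0.05; this scale understates changes of low genes. Count tests were not run, because the deposited unit is a log. The fit was tested on simulated data. Named genes were Gal, Npy, list members, the 8 genes with the highest r over set and cluster means (mean of at least 0.5), and the 6 highest and 4 lowest by rho among genes detected in at least 20% of cluster 1 cells. In the high-count cells with the most Gal, 13 other genes were looked at after their Gal was seen: the 7 axon injury genes, Npy, Agrp, Th, Dbh, Calca and Vip. No doublet caller was run. Tables and figures were made in Python 3.11.15 (scipy 1.17.1, pandas 2.3.3, numpy 2.4.6 and, for figures, matplotlib 3.10.9). Alternatives were another pseudocount (0.1), median-of-ratios size factors, no filter on low values, thinned or summed counts, other cuts of cluster 3, plate centring and leaving out each set or plate.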

Additional observations from a re-analysis of the deposited data

How the results depend on the processing

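Of 241 values under alternative settings for the levels, differences, shares, correlations and tests of Gal, 232 kept their side of the threshold or moved by less than their spread. Some log2 differences could not move, as when the plate left out was of a set outside the comparison, or when low genes were kept. Values with a wide spread counted as kept after large moves. The high-count cluster 3 level went from 24.0 to 14.9, and its mean rho with Npy from -0.022 to between -0.330 and 0.194. The tally is therefore no measure of how stable each value is. The low-count cluster 3 level, 20.4 counts per 10000, was 28.2 from summed counts and 15.8 without its highest cells. The log2 difference of cluster 1 from cluster 4, 3.98, was 4.67 with a pseudocount of 0.1. Thinned to 750 counts, shares of cells with Gal were 87.1% in cluster 1, 68.1% in high-count cluster 3, 49.0% in cluster 2, 13.0% in cluster 4 and 68.5% in low-count cluster 3. The rho of Gal with Npy in low-count cluster 3, 0.744 on average, was 0.466 when centred on each plate. With 1 plate left out, Set 3 minus Set 2 in cluster 2 ran from 0.72 to 0.99. The causes were not tested.

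Counts of genes called moved more. Without the filter on low values, 591 in place of 921 genes were called for Set 2 minus Set 1 in cluster 1, 513 in place of 1053 in cluster 2, and 905 in place of 1699 for Set 3 minus Set 1 in cluster 2. Without Set 1 replicate 4 the first count was 594. For cluster 1 minus cluster 2, Set 3 minus Set 2 gave 0 to 18 in place of 4. No paired analysis was possible because no plate number of the labels occurs in more than 1 set, so plates cannot be paired between sets; clusters were compared within plates.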
